A study of Mus musculus with 3 samples.

Results

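Fos, Fosb, Jun, Junb, Jund and Atf3 are 6 of the 15635 genes counted in single cells sorted from mouse brain, and they encode the core members of the AP-1 transcription factor together with one of its stress-induced relatives. They were chosen by gene name, with earlier results of these data known. AP-1 is a pair of basic leucine zipper proteins that binds DNA as a dimer. Jun proteins can pair with each other or with Fos proteins, Fos proteins bind DNA only with a partner such as Jun, and Atf3 can pair with Jun proteins and often represses its targets. In most tissues Fos, Fosb, Junb and Atf3 are immediate early genes, whose short-lived transcripts appear soon after a stimulus, and Jund is expressed more steadily. In microglia, the resident macrophages of the brain, these genes are known for their rapid response to stimulation.

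The libraries were 1 of mice expressing hCD33m, 1 of mice expressing hCD33M and 1 of wild type control mice, all on a C57BL/6 background and 8 weeks old. CD33 is a sialic acid-binding receptor of myeloid cells, hCD33M is the long human isoform, and hCD33m is the short isoform that lacks the sialic acid-binding domain. Each human cDNA sat at Rosa26 behind a stop cassette and a CAG promoter with GFP, and was switched on in microglia and other Cx3cr1-expressing cells by Cx3cr1Cre. The hCD33m line came from 1 embryonic stem cell clone, and the wild type counterparts in the study's cell assays carried Cx3cr1Cre as well. Brains of 2 mice were pooled per library, cells were isolated on ice with transcription and translation inhibitors, and CD11b+ CD45-low Cx3cr1+ cells were sorted before droplet capture. Genotype, the pooled mice, the isolation and the library preparation therefore cannot be told apart, and no test across mice is possible. Intervals below are exact 95% intervals for counting error only.

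Cells with over 200 and at most 8000 genes and at most 10% mitochondrial counts were kept, which left 6068 hCD33m, 5710 hCD33M and 5891 control cells with a median of 4881, 4215.5 and 4303 unique molecular identifiers (UMIs, each 1 counted transcript). These are more cells per library than the study states after its own filter, although its stated limits were used. Only mouse genes were counted, so the transgenes could not be checked. The hCD33m library, which is labelled female, held 0 Xist UMIs and 94.9 Ddx3y CPM (UMIs of a gene per 1000000 UMIs of the library), against 0 Xist UMIs and 105 Ddx3y CPM in hCD33M cells and 3 Xist UMIs and 95.3 Ddx3y CPM in control cells. Its sex label therefore goes against these Y-linked counts, and also against the study, which describes male mice for every genotype sequenced. Microglia markers were all detected, with a summed level of 31462 CPM in hCD33m cells, 33786 CPM in hCD33M cells and 33500 CPM in control cells. The summed neutrophil markers reached 64.1 CPM in hCD33m cells and 98.8 CPM in hCD33M cells, against 394.8 CPM in control cells, with 4 of 5 markers in the files and 1 of those at 0 in every library. The 3 hemoglobin markers summed to 0.130 CPM in hCD33m cells and 207 CPM in hCD33M cells, and were all at 0 in control cells. In cells of microglia-like clusters alone, Fos had 532 CPM in hCD33m and 250 CPM in hCD33M, against 57.0 CPM in control, close to the levels over all cells. Libraries shared at most 10 cell barcodes.

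The members lie on 6 gene bodies of very different build (mm10, GENCODE). Fos (chromosome 12, 85473890 to 85477273) has 4 exons, Fosb (chromosome 7, 19302696 to 19310051) has 3 to 5, and Atf3 (chromosome 1, 191170296 to 191218039) has 4. Jun (chromosome 4, 95049034 to 95052222), Junb (chromosome 8, 84974484 to 84978718) and Jund (chromosome 8, 70698949 to 70700616) are single-exon genes. Jun and Jund overlap the antisense genes Junos and Gm11175, and the 3′ end of Junb overlaps Prdx2 on the other strand. Each overlapping gene named here lies on the strand opposite to its member. The study counted 3′ libraries with the standard Cell Ranger pipeline, whose handling of strand was not checked here.

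Promoter stretches are shown to set the proximal sequences of 4 members that were higher in the transgenic libraries beside that of Atf3, which was not. Each runs from 140 bases before to 20 bases after the RefSeq transcription start on GRCm38.p6, 5′ to 3′ along the gene. Capitals mark TGACG (the shared part of the cyclic AMP response element, which binds CREB and ATF proteins), a TATA box, or TGACATCA (the variant AP-1 site known from the Jun promoter).
Fos (chr12:85473750-85473909, plus strand): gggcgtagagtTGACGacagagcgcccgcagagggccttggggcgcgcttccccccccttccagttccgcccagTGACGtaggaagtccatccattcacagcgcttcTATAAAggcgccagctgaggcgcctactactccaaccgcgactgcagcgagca
Fosb (chr7:19310026-19310185, minus strand): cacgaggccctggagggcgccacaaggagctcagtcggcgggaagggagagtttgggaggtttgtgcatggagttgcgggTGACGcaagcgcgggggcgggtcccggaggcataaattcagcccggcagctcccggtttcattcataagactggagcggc
Jun (chr4:95052203-95052362, minus strand): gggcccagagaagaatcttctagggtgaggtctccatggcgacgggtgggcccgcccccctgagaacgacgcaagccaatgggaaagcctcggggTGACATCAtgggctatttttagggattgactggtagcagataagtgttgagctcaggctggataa
Junb (chr8:84978729-84978888, minus strand): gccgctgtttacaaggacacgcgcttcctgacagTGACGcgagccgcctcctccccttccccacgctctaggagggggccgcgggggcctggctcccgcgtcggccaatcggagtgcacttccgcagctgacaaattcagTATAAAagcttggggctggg
Atf3 (chr1:191183314-191183473, minus strand): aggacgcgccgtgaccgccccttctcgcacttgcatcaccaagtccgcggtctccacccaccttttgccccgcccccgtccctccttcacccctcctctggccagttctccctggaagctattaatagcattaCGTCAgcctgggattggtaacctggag
Searched on both strands in 300-base windows from 250 bases before to 50 after the start, TGACG was found at positions -129 and -66 of Fos, -60 of Fosb, -106 of Junb and, on the other strand, -7 to -3 of Atf3. It was absent from the Jun and Jund windows, and 20.8% of 32851 mouse promoters of that length held it. TGACATCA stood at -45 to -38 of Jun only and in 3.62% of all promoters, and was added to the search after the Jun window had been read. A TATA box was matched in Fos at -33 and in Junb at 1, against 17.1% of all promoters. The full cyclic AMP element TGACGTCA, the AP-1 site TGACTCA and the CArG box bound by serum response factor were in none of the 6 windows and in 1.79%, 5.20% and 1.63% of all promoters. Sequence more than 250 bases before the start was not searched, so these genes may hold such sites farther upstream. The RefSeq start of Jund lies 1210 bases before the GENCODE gene body, so its window is not shown. That of Junb lies 30 bases before the gene body, so the Junb positions hold for the RefSeq start only. That of Atf3, at 191183333, lies inside a gene body that begins at 191218039 on the minus strand. The Atf3 positions and stretch therefore also hold for the RefSeq start only.

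Fos and Fosb, the Fos-family pair that needs a Jun partner, were higher in both transgenic libraries and formed a gradient across them. Fos had 531.6 CPM in hCD33m cells (524 to 539) and 252.5 CPM in hCD33M cells (247 to 258), against 59.8 CPM in control cells (57.1 to 62.6). Fosb had 285 CPM in hCD33m cells (280 to 291) and 139 CPM in hCD33M cells (135 to 143), against 42.6 CPM in control cells (40.4 to 45.0). The order hCD33m, hCD33M, control was the same for both genes and no intervals touched. Relative to control, Fos was 8.89-fold higher in hCD33m cells and 4.22-fold higher in hCD33M cells, and Fosb 6.69-fold and 3.26-fold. Fos ranked 254 among all genes by level in the hCD33m library and 573 in the hCD33M library, against 3057 in the control library.

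The Jun family was far more abundant in every library, and its differences between libraries were smaller. Jun, the main transactivating partner of Fos, had 2420 CPM in hCD33m cells (2404 to 2435) and 1876 CPM in hCD33M cells (1861 to 1891), against 1046 CPM in control cells (1035 to 1057). Junb, a weaker activator that can oppose Jun, had 933 CPM in hCD33m cells and 712 CPM in hCD33M cells, against 509 CPM in control cells. Jund, the steadily expressed member, had 1273 CPM in hCD33m cells and 1033 CPM in hCD33M cells, against 684 CPM in control cells. All 3 genes thus kept the order of the Fos pair. In hCD33m cells Jun was 2.31-fold, Junb 1.83-fold and Jund 1.86-fold higher than in control cells. In hCD33M cells the same ratios were 1.79, 1.40 and 1.51. Jun was the 26th most abundant gene of the hCD33m library and the 40th of the hCD33M library, against the 105th of the control library.

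Atf3 stood apart from the other members. It had 24.8 CPM in hCD33m cells (23.3 to 26.5) and 21.4 CPM in hCD33M cells (19.9 to 23.1), against 28.4 CPM in control cells (26.5 to 30.3). The hCD33m level was 0.876 times and the hCD33M level 0.755 times that of control cells, so that neither library had more Atf3 than the control library. By ratio to control among 6798 genes, Atf3 ranked 6168 in hCD33m cells and 6706 in hCD33M cells, whereas Fos ranked 4 and 6. The lowest-ranked of the other 5 members held place 33 (Junb) in hCD33m cells and 59 (Junb) in hCD33M cells.

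**Figure D1:**
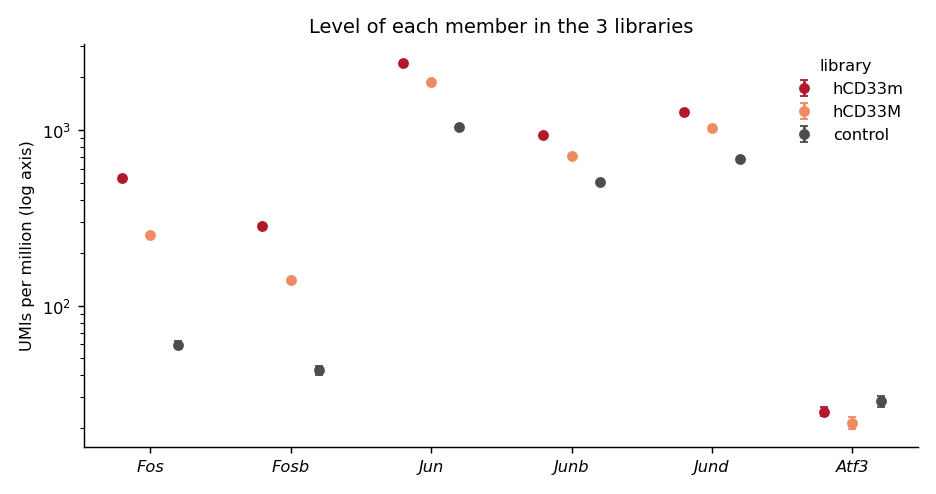
Level in CPM of the 6 members (log axis) in the hCD33m, hCD33M and control libraries, 1 library each, with exact 95% counting intervals that are mostly smaller than the points. Fos, Fosb, Jun, Junb and Jund descend in that order of libraries, and Atf3 stays between 21.4 and 28.4 CPM.

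A gene was called where 2 libraries differed by 1.5-fold or more and the interval of their ratio did not reach 1, among genes with at least 20 CPM in either library. All 6 members passed this minimum in each comparison. For hCD33m over control this called 5 of 6 members higher and 0 lower, with a median log2 ratio over the members of 1.05, while 0.868% of 6798 genes were called higher and 0.397% lower around a median of 0.01 (59 and 27 genes, or 72 and 73 as a mean over cells of scaled counts). For hCD33M over control, 4 of 6 members were called higher (Fos, Fosb, Jun and Jund) and 0 lower, with a median of 0.72, against 0.633% of all genes higher and 0.441% lower (43 and 30 genes, or 35 and 46 as a mean over cells). Jund at 1.51-fold (1.48 to 1.54) and Junb at 1.40-fold (1.37 to 1.43) lay just inside and just outside the limit, and Jund fell below it with microglia-like cells alone, where 3 of 6 members were called. For hCD33m over hCD33M, Fos (2.11-fold) and Fosb (2.05-fold) were called higher, 2 of 6 members, against 0.561% of all genes higher and 0.251% lower. Jun, Junb, Jund and Atf3 were 1.29, 1.31, 1.23 and 1.16 times as high in hCD33m as in hCD33M cells. The difference between the transgenic libraries thus passed the limit for the Fos family and not for the Jun family.

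Because Fos and Fosb differed more than their partners, the balance of paralogs differed between libraries. The 6 members summed to 5467 CPM in hCD33m cells and 4034 CPM in hCD33M cells, against 2370 CPM in control cells. The Fos family supplied 14.9% of these UMIs in hCD33m cells (14.8 to 15.1) and 9.70% in hCD33M cells (9.54 to 9.86), against 4.32% in control cells (4.18 to 4.47). Jun alone supplied 44.3% in hCD33m cells and 46.5% in hCD33M cells, against 44.1% in control cells, so its share of the pool was near constant while its level was 2.31-fold higher in hCD33m cells. The shares of Junb (17.1% and 17.6% in hCD33m and hCD33M cells, against 21.5% in control cells) and Jund (23.3% and 25.6%, against 28.9%) were lower in the transgenic libraries. Transcripts were tagged at their 3′ end and counts are not scaled by length, so the shares are compared between libraries and not read as protein amounts.

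Ratios of pairs of members, within and between the families, gave finer detail. There were 0.220 Fos UMIs per Jun UMI in hCD33m cells and 0.135 in hCD33M cells, against 0.0572 in control cells. Fosb per Fos was 0.537 in hCD33m cells (0.524 to 0.549) and 0.550 in hCD33M cells (0.530 to 0.570), against 0.713 in control cells (0.665 to 0.766). The transgenic libraries overlapped in this ratio and both were lower than control. Junb per Jun was 0.386 in hCD33m cells and 0.380 in hCD33M cells, against 0.486 in control cells, and Jund per Jun was 0.526 and 0.551, against 0.654. Jun therefore gained on both of its paralogs, whereas Junb per Jund was 0.733 in hCD33m cells and 0.689 in hCD33M cells, against 0.743 in control cells. The widest change was in Atf3 per Fos, at 0.0467 in hCD33m cells and 0.0849 in hCD33M cells, against 0.475 in control cells.

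**Figure D2:**
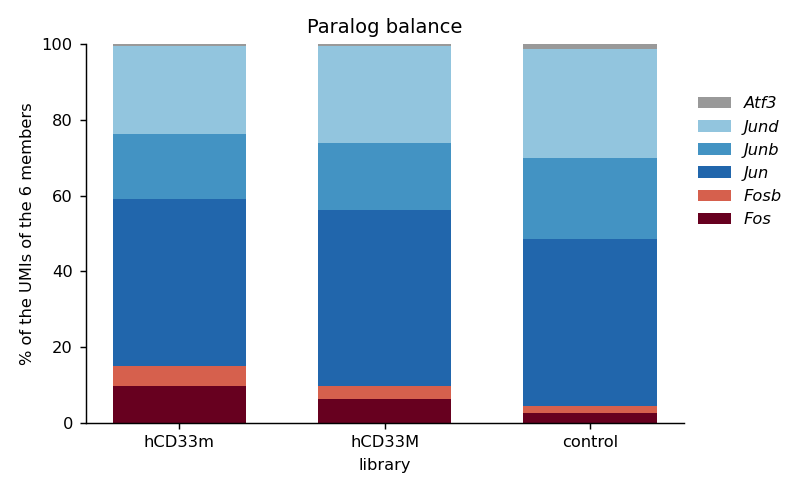
Share of the UMIs of the 6 members (stacked to 100%) taken by each gene in the hCD33m, hCD33M and control libraries. Fos and Fosb together take 14.9%, 9.70% and 4.32%, and Jun takes between 44.1% and 46.5% in every library.

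To compare single cells of unequal depth, each cell was thinned at random to 1600 UMIs, which left out 914 hCD33m, 1474 hCD33M and 1457 control cells with fewer. Fos was then detected in 43.7% of hCD33m cells and 27.0% of hCD33M cells, against 8.05% of control cells (63.1%, 44.1% and 17.7% before thinning). Jun was detected in 90.5% of hCD33m cells and 88.9% of hCD33M cells, against 72.4% of control cells (95.5%, 91.6% and 83.4% before thinning). Cells without a Jun UMI made up 9.49% of hCD33m cells and 11.1% of hCD33M cells, against 27.6% of control cells, and Jun UMIs per cell differed too, with a median of 3 in hCD33m cells and 3 in hCD33M cells, against 1 in control cells. Of hCD33m cells 35.1%, and of hCD33M cells 23.3%, exceeded the 90th percentile of control cells for Jun (4 UMIs), against 6.81% of control cells. Fos-positive cells also held more Fos, with a mean of 1.96 UMIs in hCD33m cells and 1.52 in hCD33M cells, against 1.199 in control cells. Fosb was detected in 30.3% of hCD33m cells and 17.6% of hCD33M cells, against 6.81% of control cells, Junb in 68.7% and 60.3%, against 48.8%, and Jund in 78.9% and 73.1%, against 60.4%. Atf3 was detected in 3.34% of hCD33m cells and 3.23% of hCD33M cells, against 3.86% of control cells, with intervals that overlapped. No cell class here is known to lack these transcripts, so the share due to free RNA was not measured.

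**Figure D3:**
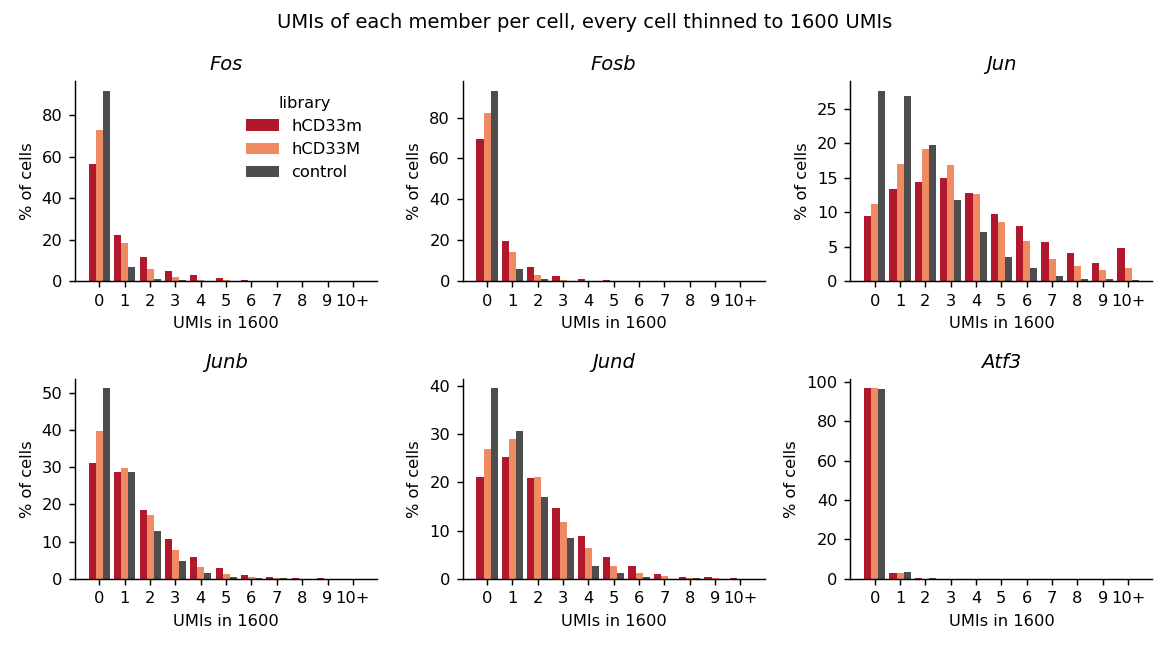
Percentage of cells holding 0 to 9 or at least 10 UMIs of each member after thinning every cell to 1600 UMIs, in 5154 hCD33m, 4236 hCD33M and 4434 control cells. The Jun, Junb and Jund distributions of hCD33m and hCD33M cells are shifted toward higher counts as a whole, whereas 56.3% of hCD33m cells and 73.0% of hCD33M cells, against 91.9% of control cells, held no Fos UMI.

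Members were detected together more often in the transgenic libraries. A thinned cell held UMIs of 3.15 members on average in hCD33m and 2.70 in hCD33M, against 2.003 in control. At least 4 members were seen in 40.7% of hCD33m cells and 22.0% of hCD33M cells, against 5.89% of control cells. No member was seen in 1.71% of hCD33m cells and 2.17% of hCD33M cells, against 7.22% of control cells, and all 6 in 29 hCD33m cells, 8 hCD33M cells and 0 of 4434 control cells, which allows a share of thinned cells with UMIs of all 6 of up to 0.0677% at 3 counts (0.0832% by the exact interval). The full Fos and Jun set without Atf3 (Fos, Fosb, Jun, Junb and Jund) was detected in 11.8% of hCD33m cells and 3.61% of hCD33M cells, against 0.451% of control cells. These joint counts also depend on how often each member was detected by itself. They were not compared with those single shares, which was done only for pairs.

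Co-detection was then set against the product of the 2 genes' own shares, which is what unrelated detection would give. Fos and Fosb had the highest ratio of the 15 pairs in each library, with both in 17.2% of hCD33m cells (1.30 times the product) and 6.85% of hCD33M cells (1.44 times), against 0.992% of control cells (1.81 times). Fosb was found in 39.5% of Fos-positive and 23.2% of Fos-negative hCD33m cells and in 25.4% and 14.7% of hCD33M cells, against 12.3% and 6.33% of control cells. The Fos-family paralogs were thus detected together above the product in all 3 libraries. The median ratio over the 15 pairs was 1.05 in hCD33m and 1.07 in hCD33M, against 1.10 in control, and the 5 pairs with Atf3 lay between 0.998 and 1.15 in hCD33m and between 1.03 and 1.19 in hCD33M, against 0.872 to 1.202 in control. The ratio cannot exceed the inverse of the larger single share, so pairs with a widely detected gene such as Jun are held closer to 1. Ranks of pairs and differences in the ratio between libraries therefore partly follow detection. By Pearson correlation of the logged thinned counts, Jun and Jund were the closest pair in each library. Their values were 0.27 in hCD33m and 0.19 in hCD33M, against 0.15 in control. Fos and Fosb had 0.21 and 0.15, against 0.09. Cells of 1 library share depth and preparation, so these ratios describe the libraries and carry no test.

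A question that Fos alone cannot answer is whether the Jun family differed in cells without detected Fos. After thinning, 43.2% of hCD33m cells (2229) and 62.3% of hCD33M cells (2637) held no Fos or Fosb UMI, against 86.1% of control cells (3819). In these cells Jun had 1966 CPM (1921 to 2013) in the hCD33m library and 1744 CPM (1704 to 1784) in the hCD33M library, against 1012 CPM (987 to 1038) in the control library. The log2 ratio of Jun to control was 0.96 in hCD33m cells (0.91 to 1.008) and 0.78 in hCD33M cells, compared with 1.21 and 0.84 over all cells. Junb and Jund had log2 ratios to control of 0.60 and 0.63 in hCD33m cells and 0.45 and 0.48 in hCD33M cells. Jun, Junb and Jund were thus called higher for hCD33m over control in these cells, as were 1.37% of the 6782 genes measured there, but Junb was not called with at most 5% mitochondrial counts (0.53), where it fell below the 1.5-fold limit. Absence of a UMI is not absence of the transcript, and the contrast narrowed with depth. In cells of at least 8000 UMIs, all UMIs used, only 58 hCD33m and 89 hCD33M cells lacked Fos and Fosb, against 389 control cells. There Jun still had 1540 CPM in hCD33m and 1453 CPM in hCD33M, against 920 CPM in control (log2 0.74 for hCD33m over control, 0.64 to 0.85), whereas Junb (0.33) and Jund (0.29) were below the 1.5-fold limit.

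Within each library, the Jun family was higher in cells with more Fos and Fosb. Thinned cells with at least 3 UMIs of the pair (970 hCD33m, 242 hCD33M and 35 control cells) had 3360 Jun CPM in hCD33m and 2862 in hCD33M, against 1696 in control. Jund had 1681 CPM in these hCD33m cells and 1330 in these hCD33M cells, against 1018 in these control cells. The interval of these Fos-rich control cells (1373 to 2074 Jun CPM) overlapped that of hCD33m cells without any Fos or Fosb UMI (1921 to 2013). Read the other way, cells without a Jun UMI had 243 Fos CPM in hCD33m and 150 in hCD33M, against 40.8 in control, a log2 ratio to control of 2.57 in hCD33m and 1.88 in hCD33M. The Fos difference between libraries was therefore present in cells with no detected Jun.

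**Figure D4:**
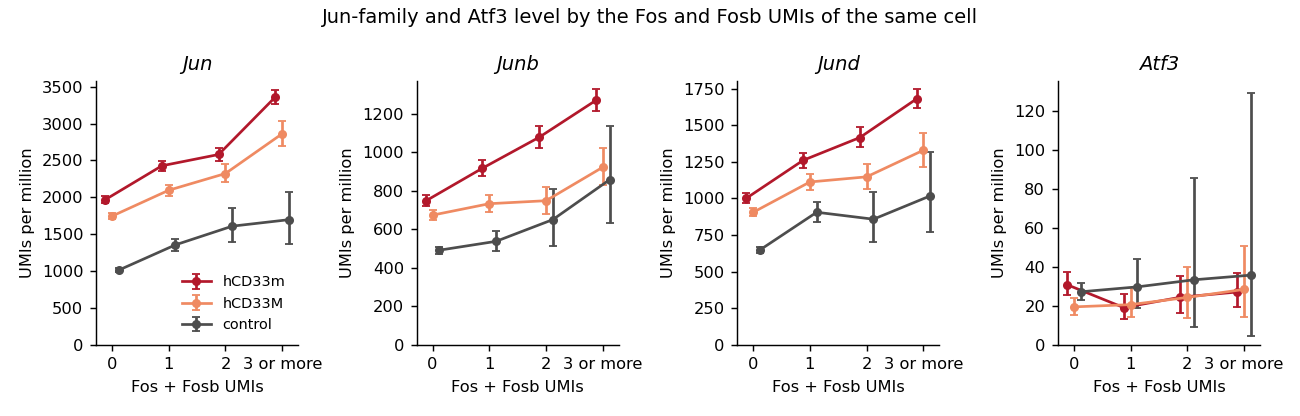
Level (CPM) of Jun, Junb, Jund and Atf3 in thinned cells with 0, 1, 2 or at least 3 UMIs of Fos and Fosb together, for hCD33m, hCD33M and control cells, with exact 95% counting intervals. Jun is higher in hCD33m and hCD33M than in control cells at every number of Fos and Fosb UMIs, and the Atf3 intervals overlap between hCD33m and control cells at each number.

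Cells were grouped into 12 clusters without use of the members or other early genes. Clusters 0, 1, 2, 4, 6 and 8 were microglia-like by their markers (4777 hCD33m, 4098 hCD33M and 4229 control cells) and cluster 9 was like border-associated macrophages (110, 46 and 58 cells). Clusters 3, 5, 7, 10 and 11 stayed unnamed. Cluster 3 matched 9 microglia markers and was left unnamed because its median depth was only 0.251 of the library median. Cluster 3 (Ttr and mitochondrial genes) and cluster 5 (Gm26917 and Gm42418) held cells of few UMIs, cluster 7, pooled over libraries, was led by hemoglobin genes, whose UMIs came almost wholly from the hCD33M library, with Cst7, cluster 10 by Ccl4, Mmp12 and Ccl3, and cluster 11 by S100a9 and S100a8.

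The Fos and Jun differences were not tied to 1 cluster. Fos was called higher for hCD33m over control in 12 of 12 clusters, with log2 ratios between 1.92 (cluster 11) and 3.57 (cluster 5), and for hCD33M over control in 11 of 11 clusters with at least 20 cells in both libraries, between 0.88 and 2.32. Fos was also called higher for hCD33m over hCD33M in 11 of 11. Jun was called higher for hCD33m over control in 12 of 12 clusters (0.79 to 1.51) and for hCD33M over control in 11 of 11 (0.61 to 1.64), and for hCD33m over hCD33M in 1 of 11. Jund was called in 12 of 12 and 8 of 11 clusters against control, and Junb in 10 of 12 and 3 of 11. With every library weighted to the cluster mix of the control library, the log2 ratio of hCD33m to control was 3.18 for Fos, 1.24 for Jun and -0.36 for Atf3. A finer clustering (resolution 1.2), also made without the members, had Fosb and Fos among the leading genes of its largest cluster. That cluster held 23.5% of hCD33m cells and 12.6% of hCD33M cells, against 5.33% of control cells. The weighting did not use this finer cluster. How far its share of cells goes with the library differences was not tested.

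Levels themselves varied by cluster more for some members than for others. Jun was highest in cluster 4, with 3809 CPM in hCD33m and 2609 in hCD33M, against 1414 in control. Cells of cluster 4 were shallow, with a median of 1936 UMIs, or 0.446 of the library median. Jun was also highest in the shallowest cells of each library, as given below by depth. How far the Jun level of cluster 4 goes with depth was not tested. Jun was lowest in cluster 11, with 662 CPM in hCD33m and 725 in hCD33M, against 233 in control. In that same cluster Fos had 788 CPM in hCD33m and 385 CPM in hCD33M, against 208 CPM in control, the highest Fos level of the control clusters. The cluster led by neutrophil and monocyte genes thus combined high Fos with low Jun. In border-associated macrophage-like cells, Fos had 666 CPM in hCD33m and 286 CPM in hCD33M, against 117 CPM in control, and Jun 2303 and 1863, against 929, so that a sorted population other than microglia showed the same order.

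Atf3 was spread unevenly over the clusters. In cluster 10 it reached 303 CPM in 81 hCD33m cells, against 626 CPM in 28 control cells, while hCD33M had 13 cells there and was not compared. In microglia-like cells it had 20.5 CPM in hCD33m and 21.3 CPM in hCD33M, against 25.1 CPM in control. Cluster 10 held 15.2% of the Atf3 UMIs of the hCD33m library and 1.13% of those of the hCD33M library, against 10.7% of those of the control library. Without it Atf3 had 21.3 CPM in hCD33m and 21.2 CPM in hCD33M, against 25.5 CPM in control. The small gap between the transgenic libraries seen over all cells was thus gone, whereas Fos without that cluster was 533 and 251, against 59.9 CPM.

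**Figure D5:**
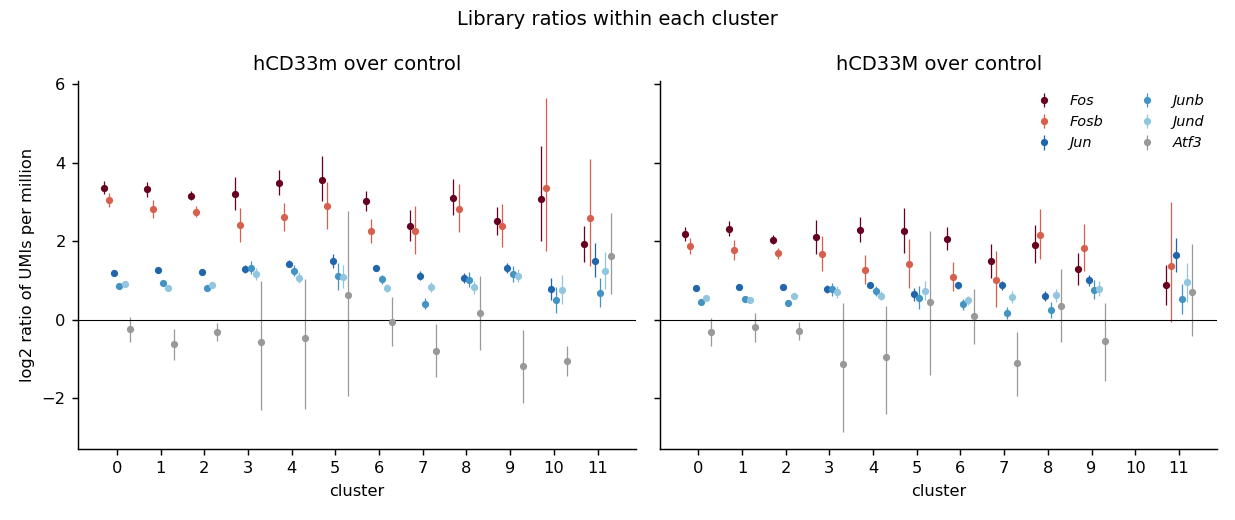
Log2 ratio of CPM to control within each of the 12 clusters for hCD33m (left) and hCD33M (right), with exact 95% counting intervals, for clusters with at least 20 cells in both libraries. Fos, Fosb, Jun, Junb and Jund lie above 0 in every cluster shown for hCD33m, with Fos between 1.92 and 3.57, and Atf3 lies between -1.18 and 1.62.

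The libraries' ratios were also set side by side by depth. Among cells under 1600 UMIs, the log2 ratio of hCD33m to control was 3.19 for Fos and 1.38 for Jun, and among cells of at least 8000 UMIs it was 3.13 and 1.22. Junb and Jund differed more from control in the shallow cells, with log2 ratios for hCD33m of 1.31 and 1.19 under 1600 UMIs, and of 0.82 and 0.90 from 8000 UMIs on. Junb for hCD33M over control was at 0.74 and 0.45, and Jun for hCD33m over hCD33M at 0.61 and 0.35, so that both passed the 1.5-fold limit in the shallow cells and were below it in the deep ones. Jun itself was highest in the shallowest cells, with 3396 CPM in hCD33m and 2227 in hCD33M, against 1308 in control, and Atf3 lowest there, with 8.88 and 6.81, against 10.6 CPM. The kept hCD33m cells had a median mitochondrial share of 1.42% and hCD33M cells 1.504%, against 1.75% in control cells. Among cells with at most 5% mitochondrial counts, 5, 4 and 2 members were again called higher in the 3 comparisons.

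Genes that accompany AP-1 were taken from 4 lists, of which genes with at least 20 CPM were measured. Over all genes, 0.868% were called higher and 0.397% lower for hCD33m over control. These shares were 0.633% and 0.441% for hCD33M over control, and 0.561% and 0.251% for hCD33m over hCD33M. Of 16 measured bZIP partners and competitors, 0 were called in any comparison. The most displaced for hCD33m over control was Batf3, a lymphoid and dendritic cell factor. It had 56.7 CPM in hCD33m cells and 55.4 CPM in hCD33M cells, against 44.2 CPM in control cells. Fosl2, another Fos-family gene, stayed below the minimum at 13.7 CPM in hCD33m cells and 11.5 CPM in hCD33M cells, against 7.96 CPM in control cells. Of 20 measured upstream kinases and factors, 0 were called, and Mapk8 (JNK1, the Jun kinase) had 40.7 CPM in hCD33m cells and 37.0 CPM in hCD33M cells, against 33.5 CPM in control cells.

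Some negative-feedback genes followed the order of the Fos family. Of 12 measured, 5 were called higher and 1 lower for hCD33m over control (median log2 0.43), and 4 higher and 1 lower for hCD33M over control (0.36). Dusp1, a phosphatase that switches off MAP kinases, had 127 CPM in hCD33m cells and 66.4 CPM in hCD33M cells, against 19.7 CPM in control cells. Zfp36, which destabilises early transcripts, had 386 CPM in hCD33m cells and 261 CPM in hCD33M cells, against 157 CPM in control cells. Ier2, an early nuclear regulator, had 140 CPM in hCD33m cells and 72.1 CPM in hCD33M cells, against 33.9 CPM in control cells. All 3 followed the order of Fos. Ier3 had 42.0 CPM in hCD33m cells and 22.0 CPM in hCD33M cells, against 22.6 CPM in control cells, and was called for hCD33m over control and for hCD33m over hCD33M (log2 0.93).

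Most textbook AP-1 targets were below the minimum or not called. Of 11 measured among 25 listed for hCD33m over control, 3 were called higher and 1 lower, with a median log2 of 0.03, and of 10 measured for hCD33M over control, 0 were higher and 2 lower. The chemokine gene Ccl4 had 98.5 CPM in hCD33m cells and 25.9 CPM in hCD33M cells, against 47.1 CPM in control cells, and Ccl3 had 90.7 and 27.3 CPM, against 41.5 CPM. These 2 genes were called higher in hCD33m and lower in hCD33M, an order that no Fos or Jun gene had. Both are among the leading genes of cluster 10, whose share of cells had that order too. It held 1.33% of hCD33m cells and 0.228% of hCD33M cells, against 0.475% of control cells. How far the difference in these genes goes with that cluster was not tested. Ccl2 had 35.7 CPM in hCD33m cells and 14.9 CPM in hCD33M cells, against 8.63 CPM in control cells. The cyclin gene Ccnd1 had 146 CPM in hCD33m cells and 215 CPM in hCD33M cells, against 226 CPM in control cells.

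The genes whose counts most resembled each member from cell to cell were found by the mean Pearson correlation within the 3 libraries, over 6406 genes in cells of at least 1600 UMIs, on the log of counts per 10000, as a description in which cells share library and depth. For Fos they were Fosb (0.26), Jun (0.23) and Jund (0.22), and for Jun they were Jund (0.32), Btg2 (0.26) and Fosb (0.25). For Junb they were Btg2 (0.24), an early antiproliferative gene, Egr1 (0.21), an early zinc finger factor, and Jun (0.21). The closest gene of Fos, Fosb, Jun and Jund was another member, whereas the closest genes of Atf3 were Ccl4 (0.18), Ccl3 (0.15) and Id2 (0.08). Atf3 held place 627 among the genes most like Fos. Correlations of this size in sparse counts are weak.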

How the data were processed

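Gene counts (UMIs per gene and cell, not normalized) were deposited by the authors after alignment with Cell Ranger to mm10 and import with Seurat, which kept barcodes with over 200 genes and genes seen in at least 3 cells. The annotation release is not given in the sources used here. Of 6257, 5920 and 6163 barcodes in the hCD33m, hCD33M and control libraries, 167, 174 and 264 were over the 10% mitochondrial limit. No doublet caller was run. Counts were summed per library and divided by the total UMIs (38555874, 32899506 and 31396051). Ratios carry exact conditional binomial intervals and shares exact Clopper-Pearson intervals. Cells were clustered by the Leiden method (leidenalg 0.10.2, resolution 0.8) on 15 principal components of 2000 variable genes, and TMM factors came from edgeR 4.0.16. The scripts were tested on simulated data. The members, gene lists and markers were chosen with earlier results of these data known. Named genes were the members, the 3 genes most like each, and up to 4 genes per list. The latter had the largest absolute log2 ratio of hCD33m to control, in either direction. Of all these the most informative are given. Fosl2 was named after its values were seen. Alternatives covered cell filters, scaling, the call limit, thinning depth and cluster resolution.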

Additional observations from a re-analysis of the deposited data

Results flagged for a closer look

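Atf3 ratios differed in direction between clusters under the same comparison of hCD33m with control. The log2 ratio was -0.62 in cluster 1, -0.79 in cluster 7, -1.18 in cluster 9 and -1.05 in cluster 10, but 1.62 in cluster 11 (0.65 to 2.72), which held 41 hCD33m and 20 control cells with 47 and 11 Atf3 UMIs. Cluster 11 matched 7 monocyte and 4 neutrophil markers. Summed over each library, neutrophil markers had 64.1 CPM in hCD33m cells, against 394.8 CPM in control cells. Whether cluster 11 held the same mix of cell types in both libraries was not tested. The difference between clusters was not tested, since each library gives 1 value per cluster.

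Barcodes left out for over 10% mitochondrial counts (167 hCD33m, 174 hCD33M and 264 control) were used in no comparison, and 5 members were higher in those of hCD33m than in those of control. In hCD33m barcodes Fos had 461 CPM, Fosb 361 CPM, Jun 2544 CPM, Junb 1062 CPM and Jund 941 CPM. In hCD33M barcodes the levels were 206 CPM for Fos and 1788 CPM for Jun. In control barcodes they were 40.7 CPM for Fos and 1086 CPM for Jun.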

How the results depend on the processing

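Counts of members called higher were compared under 10 alternatives for each pair of libraries. With a 2-fold limit, 3 members were called for hCD33m over control (Fos, Fosb and Jun) and 2 for hCD33M over control (Fos and Fosb). For hCD33M over control, 3 were called with microglia-like cells alone and with 500 to 4000 genes and 5% mitochondrial counts. No called member ratio changed sign under any alternative. The log2 ratio of Fos for hCD33m over control lay between 3.13 and 3.22 and that of Jun between 1.204 and 1.22, while Atf3 for hCD33m over hCD33M lay between -0.06 (microglia-like cells) and 0.43 (mean over cells of counts per 10000). The Fos-family share of member UMIs was 10.6 percentage points higher in hCD33m than in control, and 10.2 as a mean over cells. The difference in members detected per thinned cell was 1.15, and 1.10 with thinning to 1000 UMIs. In cells without a Fos or Fosb UMI, 3 of the 4 other members were called higher for hCD33m over control, but 2 (Jun and Jund, Junb at 0.53) with at most 5% mitochondrial counts, 1 (Jun) with thinning to 3000 UMIs and 1 (Jun) in cells of at least 8000 UMIs, a setting chosen after seeing the data, as was leaving out cluster 10.

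The count of all genes called higher and lower for hCD33m over control was 59 and 27, against 24 and 11 with a 2-fold limit, 451 and 580 without a minimum CPM, and 72 and 73 as a mean over cells. For hCD33M over control it was 43 and 30, against 13 and 11, 349 and 501, and 35 and 46. For hCD33m over hCD33M it was 38 and 17, against 16 and 7 with a 2-fold limit and 472 and 331 without a minimum. At resolutions 0.4 and 1.2 the share of clusters in which each member was called for hCD33m over control stayed within 1.5 times of that at 0.8, and the other comparisons were not run at those resolutions. Depth limits Atf3 most, with under 1000 UMIs in each library. The causes were not tested. No paired analysis was possible because each genotype has 1 library.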
